A study of Sus scrofa with 6 samples.

Results

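Early porcine induced pluripotent stem cells (piPSCs) were compared with the fibroblasts that gave rise to them, across all genes. The members of the comparison were the gene IDs whose deposited FPKM reached 1 in at least 1 of 2 columns, "piPSCs P5 (Rex1+)" and "PEF". FPKM is a read level scaled to gene length and to the reads of the library. Of 25322 gene IDs, 13452 met this rule, and 8681 of them could be given a gene symbol. The values came from 4 of the 6 libraries of the series. The piPSCs, here called P5, were 2 libraries of cells at passage 5 that the labels describe as Rex1 positive. PEF were 2 libraries of fibroblasts, also at passage 5 and described as the progenitors. All groups came from the Small Xiang Pig breed, and the remaining 2 libraries were Rex1 negative piPSCs at passage 10, here called P10. The sources used here do not name the introduced reprogramming factors, the number of piPSC lines or any feeder layer. Each group had 1 deposited value per gene, so no SD, n or p-value belongs to any difference below, and no difference was checked against the spread between libraries.

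Fibroblasts are mesenchymal cells that secrete collagen-rich matrix and pull on it through actin bundles anchored at focal adhesions. Reprogramming to a pluripotent state replaces this programme with that of an early embryonic epithelium, whose cells adhere through cadherins and tight junctions and divide with a short G1 phase. Rex1, encoded by ZFP42, is a zinc finger protein widely used as a mark of undifferentiated pluripotent cells.

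The difference used throughout is log2(FPKM + 1) in P5 minus log2(FPKM + 1) in PEF, and genes whose difference reached 1 in either direction, 2-fold on that scale, are counted as higher or lower. Because of the added 1, the scale understates differences of genes with low FPKM. By this count 2990 gene IDs, 22.2% of those compared, were higher in P5, and 2744, or 20.4%, were lower. Among the IDs with a symbol the shares were 22.3% higher and 19.7% lower. These shares are the background against which each group of genes below should be read. The median difference over all compared IDs was 0.07 and the mean was -0.01. Which direction held more IDs depended on the scaling, since median scaling gave 2809 higher and 2875 lower.

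The 2 tails were unequal. At a difference of at least 2, 946 IDs were higher in P5 and 1096 were lower. At 4 or more, 108 were higher and 251 lower, and at 7 or more, 6 were higher and 37 lower. Between the tails, 4291 IDs (31.9%) differed by less than 0.5. Across the compared genes Pearson's r of log2(FPKM + 1) between the columns was 0.70 and Spearman's rank correlation was 0.67, as a description over genes, which are not independent replicates.

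**Figure D1:**
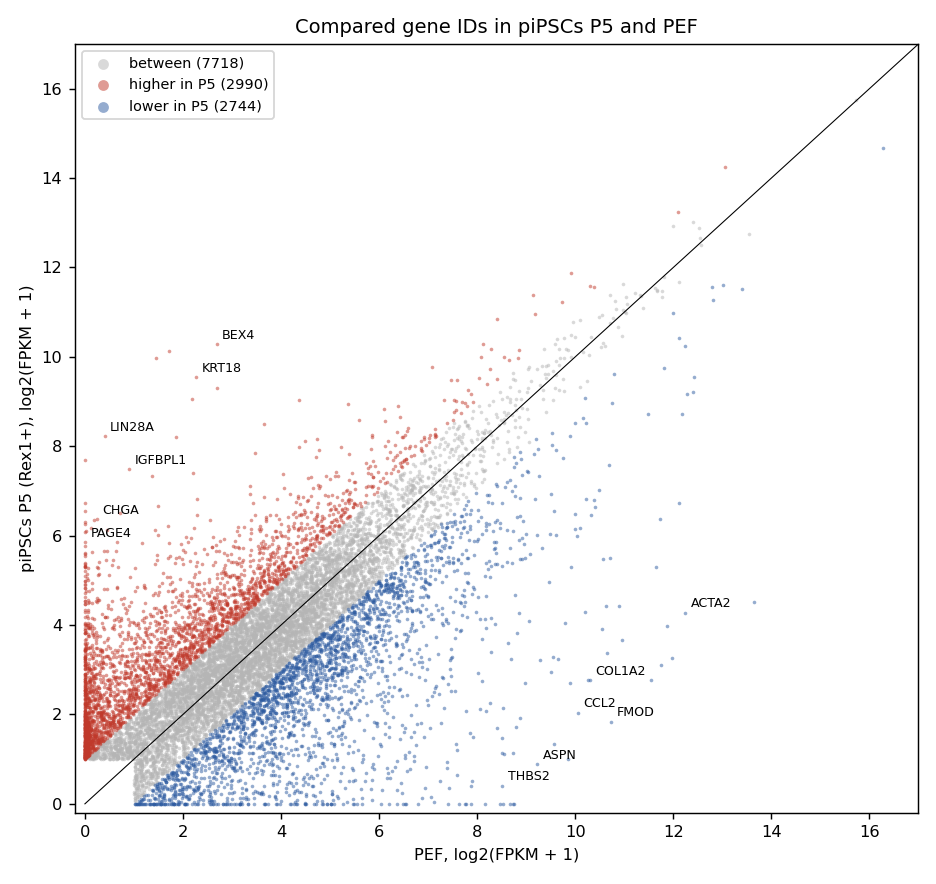
Each point is a compared gene ID, with its log2(FPKM + 1) in PEF on the horizontal axis and in piPSCs P5 on the vertical axis. Red points (2990) were at least 1 higher in P5, blue points (2744) at least 1 lower, and grey points (7718) lay between. The empty corner at the lower left is the FPKM filter.

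More genes passed the filter in P5 than in PEF, and fewer reached high levels. In P5 12586 IDs reached an FPKM of 1, against 11772 in PEF, whereas 706 reached an FPKM of 100 in P5, against 923 in PEF. The 100 highest nuclear genes took 38.1% of the nuclear FPKM sum in P5 and 44.1% in PEF. Much of that gap lay in a single ID without a symbol, ENSSSCG00000020149, at 26133 in P5 and 79635 in PEF. Without it, an alternative chosen after the values were seen, the shares were 34.8% in P5 and 37.0% in PEF, and those of the 10 highest were 10.5% in both. The mitochondrial genome's FPKM summed to 120412 in P5 and 129128 in PEF. Its share of the whole FPKM sum was 19.1% in P5 and 15.7% in PEF, as that whole sum was 628992 in P5 and 821130 in PEF. The direction of the differences moved with level. Among IDs with a mean log2(FPKM + 1) below 1, 49.1% were higher in P5 and 11.9% lower. Among those between 4 and 5 the shares were 14.4% and 23.5%. The filter has a part in the first of these shares, since 1680 IDs passed only through P5 and 1294 of them counted as higher, while 866 passed only through PEF and 613 of them counted as lower. Direction also differed between classes of locus length, without a steady trend. Among loci that hold 1 ID and span under 5000 bases, 29.0% were higher in P5 and 18.2% lower, and among those of 100000 to 200000 bases, 17.2% were higher and 30% lower. In the longest class, 177 IDs of 200000 bases or more, the shares were 26.6% and 28.8% and the median difference was -0.03. The relation between length and level was not separated here. At the filter's edge, 82 IDs had a highest FPKM up to 5% above 1, and their largest difference was 1.03. Of the IDs left out, 76 had a highest FPKM up to 5% below 1, and their largest difference was 0.997, since the added 1 keeps any such ID under a difference of 1.

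**Figure D2:**
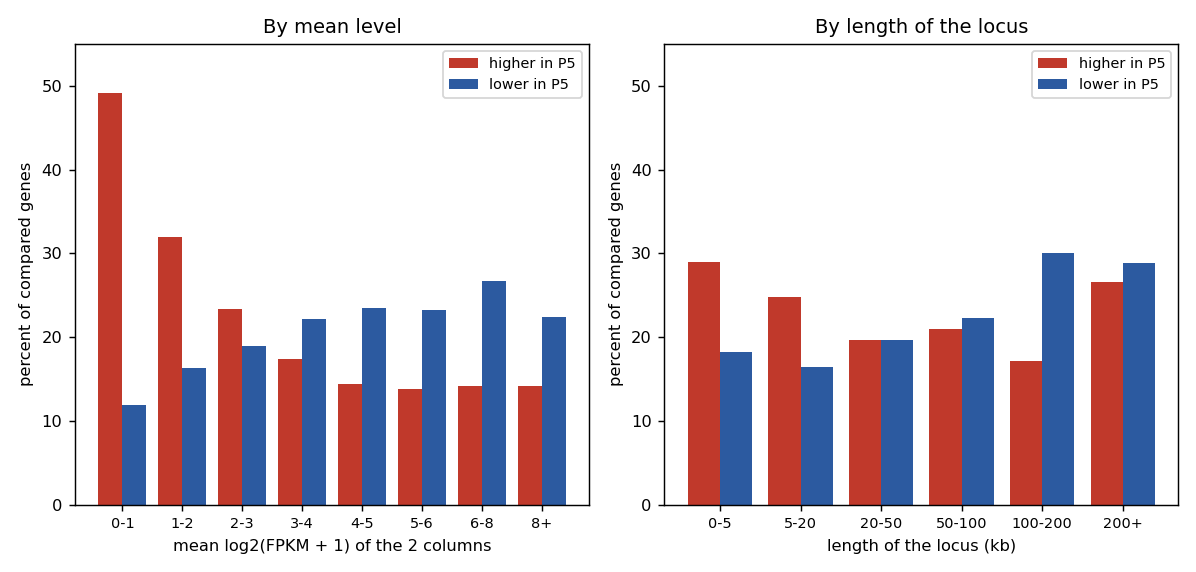
Percent of compared genes that were higher (red) or lower (blue) in P5, by the mean of log2(FPKM + 1) in both columns (left) and by the length of the locus in kilobases for loci that hold 1 gene ID (right). Higher genes led at low levels (49.1% against 11.9% lower in the lowest class) and lower genes led from a mean level of 3 upward.

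The labels were checked against markers. Here and below, a gene is said to have a row if an ID was matched to its symbol. Of 13 fibroblast markers listed, 11 had a row, and 10 of these were lower in P5. VIM, the mesenchymal intermediate filament, was at an FPKM of 589 in P5 and 5403 in PEF. LUM, a collagen-binding proteoglycan, was at 1.31 in P5 and 193 in PEF, and FAP, a cell-surface protease of activated fibroblasts, was at 0.131 in P5 and 24.7 in PEF. COL3A1, a fibrillar collagen, remained at 87.9 in P5, against 1016 in PEF, and was at 3.11 in P10. In such bulk values, fewer cells of a type and less RNA per cell cannot be told apart. FN1, fibronectin, went the other way: it was listed at 0 in PEF and at 47.1 in P5. An exact 0 in a table without counts can be a failed estimate, so no fold is given for such genes.

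Only 2 of 13 pluripotent cell markers could be matched to a row by symbol, LIN28A and DNMT3B. The others may be among the IDs without a symbol, since 46.6% of all IDs had one. ZFP42, POU5F1, SOX2 and NANOG are not analysed here, so the Rex1 label itself was not checked. Of 10 simple epithelium markers, 8 had a row and 7 were compared, and all 7 were higher in P5. Of these 7, 4 passed the filter through P5 alone, which fixes their direction but not its size. FPKM of the 8 summed to 1571 in P5 and 23.0 in PEF. Among the 8, EPCAM, an epithelial adhesion molecule, was at 41.6 in P5 and 0.227 in PEF, and CLDN7 was listed at 0 in both. The position in the table of KRT18, OCLN and CLDN6 is shared with another ID. Reads of genes at such a shared locus may have been split between the IDs in a way that cannot be checked here.

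Markers of other cell types were mostly low in both columns. The 6 endothelial markers with a row summed to an FPKM of 20.5 in P5 and 2.86 in PEF, most of it PECAM1 at 12.8 in P5 and 2.78 in PEF, while ESAM was listed at 0 in PEF. Of these 6, 4 were compared and all 4 were higher in P5 (median 1.70), with 3 passing the filter through P5 alone. The 8 blood and macrophage markers summed to 3.0 in P5 and 4.84 in PEF, with TYROBP and CSF1R listed at 0 in both and PTPRC and LYZ at 0 in PEF. The 7 skeletal and cardiac muscle markers summed to 3.27 in P5 and 7.94 in PEF, with MYOD1 and TNNT2 listed at 0 in P5. The 12 trophectoderm and endoderm markers summed to 70.0 in P5 and 24.4 in PEF. APOA1 at a shared locus gave most of that sum in P5 (48.1), AFP was listed at 0 in both columns, TTR at 0 in P5, and CDX2, FOXA2 and ELF5 at 0 in PEF. The part of such cells in the differences below was not tested.

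The 12 genes with a symbol that stood highest in P5 relative to PEF came from several programmes. LIN28A, an RNA-binding protein that blocks maturation of let-7 microRNAs (chromosome 6, 77358778 to 77371149 on susScr3), was at an FPKM of 299 in P5 and 204 in P10, against 0.325 in PEF. That is a difference of 7.82. HENMT1, the methyltransferase that protects the ends of piRNAs in the germ line (chromosome 4, 121866217 to 121880976), reached 67.6 in P5 and 1.80 in P10, against 0.0176 in PEF. PAGE4, a member of an X-linked family of cancer/testis antigens (chromosome X, 48525546 to 48528303), was at 57.0 in P5 and was listed at 0 in P10 and PEF. Both genes were thus near or at 0 in fibroblasts and well below their P5 level in the later piPSCs.

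Neuroendocrine and neural genes formed part of the same 12. CHGA, chromogranin A of secretory granules (chromosome 7, 120954017 to 120966278), was at an FPKM of 81.9 in P5 and 67.5 in P10, against 0.180 in PEF. SOX21, an HMG-box factor of neural progenitors, had 47.7 in P5 and 42.8 in P10 and was listed at 0 in PEF. The others of the 12 were BEX4, KRT18, BEX1, KRT8, IGFBPL1, APOE and DNMT3B, with differences from 5.96 to 7.60. APOE lies at a locus shared by 6 IDs.

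The lowest genes by the same rule, of which 11 are described, encode secreted proteins and, in ACTA2, a contractile actin. FMOD (chromosome 9, 70356563 to 70367608), fibromodulin, a small proteoglycan that binds collagen fibrils, was at an FPKM of 2.58 in P5 and 1699 in PEF, a difference of -8.89. COL6A3 (chromosome 15, 151451224 to 151542446), a chain of the microfibrillar type VI collagen, was at 0.423 in P5 and 237 in PEF. TGFBI, an adhesive matrix protein induced by TGF-beta, was at 1.18 in P5 and 370 in PEF at a shared locus. COL8A1, a short-chain collagen, kept 9.31 in P5, against 1597 in PEF. ASPN, THBS2, CCL2, ACTA2, CCN3, COL1A2 and COL12A1 completed the 11, with differences from -8.34 to -7.50. ASPN lies at a locus shared by 7 IDs and COL12A1 at one shared by 2. In P10 the highest of these 11 was ACTA2 at 23.9.

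**Figure D3:**
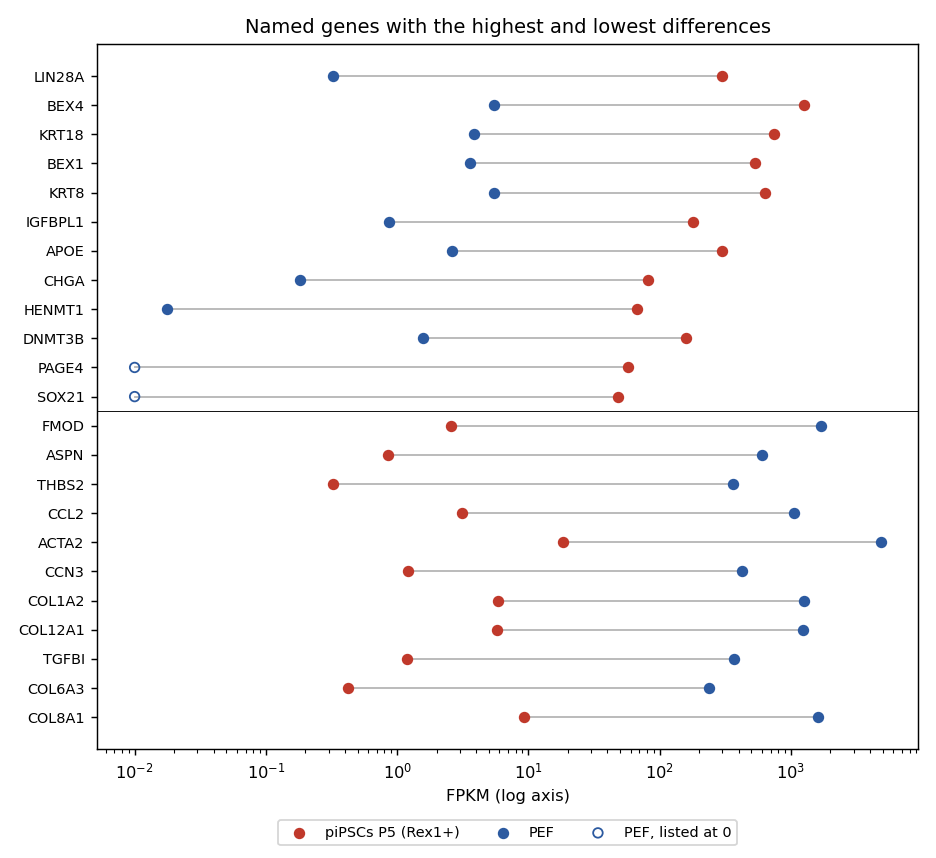
FPKM on a log axis of the 12 genes with the highest (top) and 11 of the 12 with the lowest (bottom) log2(FPKM + 1) differences, with P5 in red and PEF in blue. An open circle at the left edge marks a gene listed at 0 in PEF (PAGE4 and SOX21). The bottom genes run from 237 (COL6A3) to 4863 (ACTA2) in PEF and from 0.322 (THBS2) to 18.4 (ACTA2) in P5.

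Among genes listed at exactly 0 in PEF, 285 IDs counted as higher. With PAGE4, SOX21 and FN1, the leading ones with a symbol were THBS1, a matrix glycoprotein, at an FPKM of 23.8 in P5, CLDN9 at 19.3 and ACTL8, a testis-type actin-related protein, at 17.1. In the other direction 130 IDs counted as lower and were listed at 0 in P5. BTC, the EGF family ligand betacellulin, was at 18.8 in PEF, the alarmin IL33 at 17.4, and PAX1, a paired-box factor of the sclerotome, at 12.3. NTNG2, a membrane-anchored netrin, was at 11.5 in PEF, FRMD7 at 8.01 and the spliceosomal RNA U12 at 21.4, at a shared locus. Some of the widest differences belonged to IDs without a symbol. ENSSSCG00000021943, on scaffold GL896296.2, was at 22 in P5 and 12736 in PEF, the lowest difference of all IDs at -9.11. ENSSSCG00000004650, on chromosome 1, was at 1.0 in P5 and 923 in PEF. ENSSSCG00000001393, on chromosome 7, was at 1116 in P5 and 2.26 in PEF, and ENSSSCG00000011771, on chromosome 13, was at 1008 in P5 and 1.74 in PEF.

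Genes with a symbol were then described in 56 functional lists, besides the 7 marker lists above. Together all 63 lists held 2029 compared genes, and a gene may be in several lists. A list's median stands beside its counts, and the background median is 0.07. In all, 14 of the 63 lists had a median of at least 1 and 15 a median of -1 or below. These medians describe the members above the filter. With every member listed above 0 in either column, 20 lists stayed past 1 in either direction, against 29, and 9 did not. Beside collagens, chemokines and HOX genes, whose values stand below, the 9 were matrix proteases (-0.37), tight and gap junctions (0.67), tubulins and intermediate filaments (0.16), synaptic genes (0.30), germ cell genes (0.19) and muscle markers (-0.18).

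**Figure D4:**
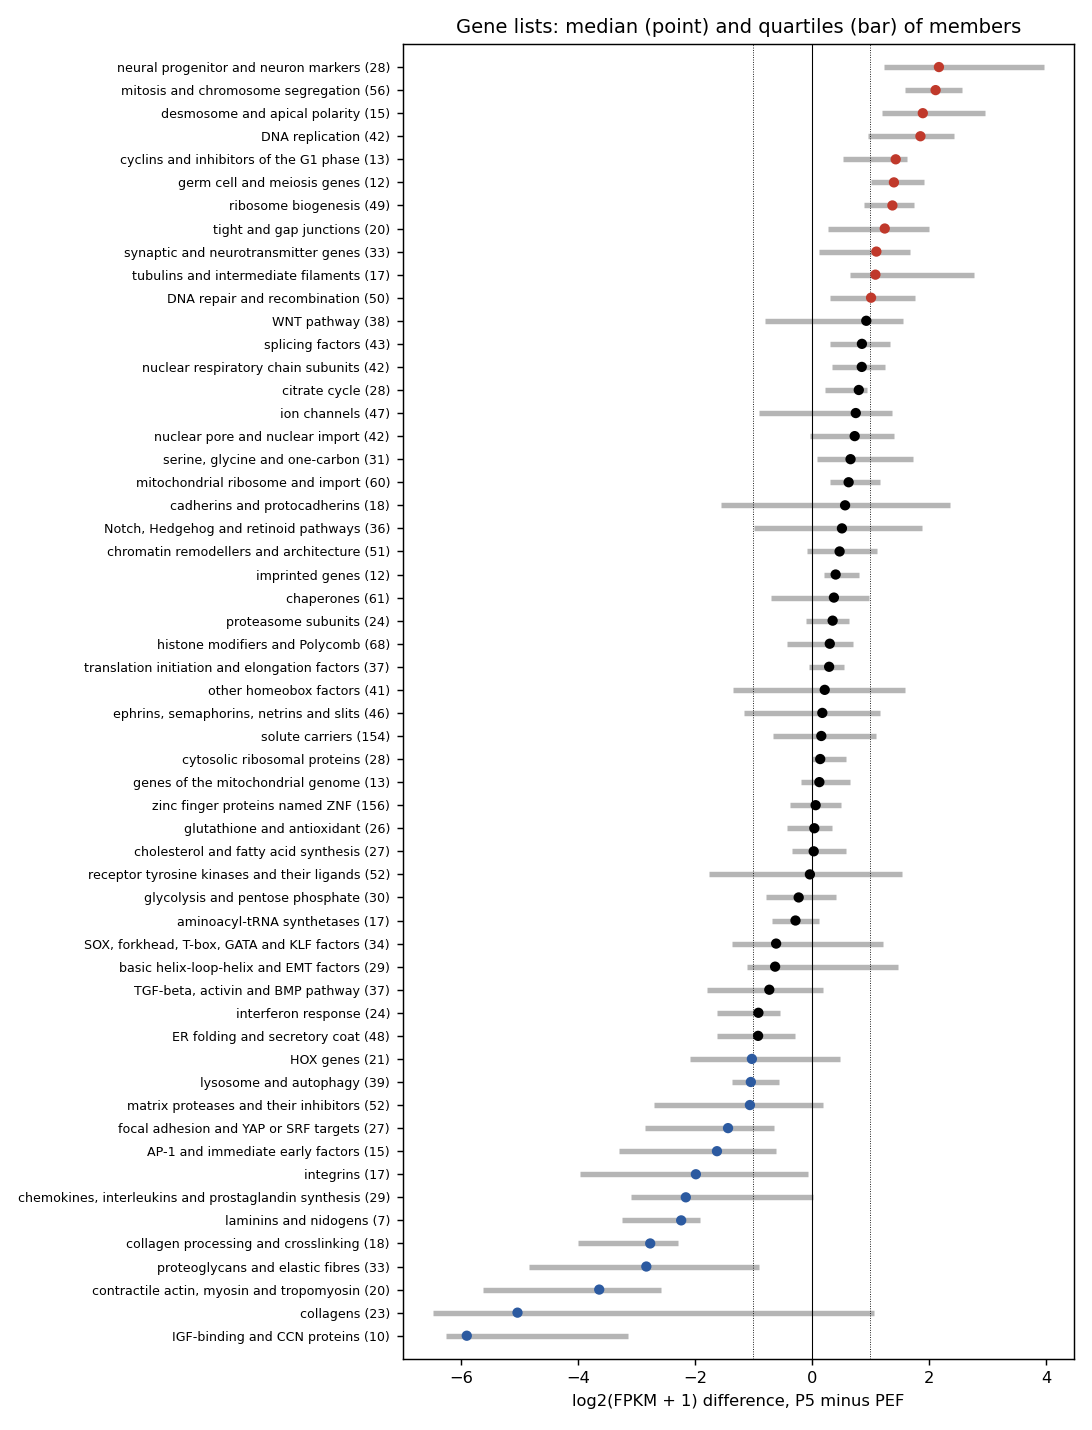
Median (point) and quartiles (bar) of the log2(FPKM + 1) difference, P5 minus PEF, of the compared members of 56 functional gene lists, with the number compared in brackets and dotted lines at -1 and 1. Red medians are at 1 or above and blue medians at -1 or below. IGF-binding and CCN proteins (-5.90) and collagens (-5.03, or -0.83 without the filter) stood lowest, and neural genes (2.17) and mitosis genes (2.11) highest.

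The machinery that builds ribosomes was higher in P5, whereas ribosomal proteins differed little. Of 53 ribosome biogenesis genes with a row, 49 were compared, and 33 were higher and 0 lower (median 1.38.) NPM1, nucleophosmin of the nucleolus, was at an FPKM of 3756 in P5 and 958 in PEF. FBL, fibrillarin, which methylates ribosomal RNA, was at 225 in P5 and 41.0 in PEF, and LYAR, a nucleolar growth regulator, was at 157 in P5 and 23.6 in PEF. TCOF1, treacle, which aids transcription of ribosomal RNA genes, was at 24.2 in P5 and 3.38 in PEF. Cytosolic ribosomal proteins had 2 higher and 0 lower of 28 and a median of 0.14. RPLP1, a stalk protein of the large subunit, was at 3558 in P5 and 3603 in PEF, and RPS18 at 2068 in P5 and 2063 in PEF. RPS28 was at 742 in P5 and 261 in PEF. Many ribosomal protein genes have near-identical copies in mammalian genomes, among which reads may have been divided in a way not stated in these sources. Translation initiation and elongation factors had 1 higher and 4 lower of 37. EIF4EBP1, the repressor of cap-dependent initiation, was at 58.7 in P5 and 226 in PEF.

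Splicing and nuclear transport genes were shifted upward. Of 43 splicing factors compared, 17 were higher and 0 lower (median 0.85.) HNRNPA1, an RNA-binding protein that acts on splice site choice, was at an FPKM of 2672 in P5 and 559 in PEF, and SNRPA, a protein of the U1 particle, at 114 in P5 and 19.2 in PEF. As a share of the nuclear FPKM sum the 44 splicing factors with a row took 1.98% in P5 and 0.65% in PEF. Of 42 nuclear pore and import genes, 18 were higher and 2 lower. NUP210, an integral membrane protein of the pore, led them at 29.9 in P5 and 0.102 in PEF. IPO5, an importin that carries ribosomal proteins into the nucleus, was at 219.5 in P5 and 99.5 in PEF, while KPNA1, an importin alpha, was at 10.8 in P5 and 26.8 in PEF. Among 61 chaperones 15 were higher and 12 lower, or 24.6% and 19.7%, near the background. In a subgroup formed after the values were seen, the CCT chaperonin with the mitochondrial pair HSPD1 and HSPE1 had 8 higher and 0 lower of 10, whereas DNAJ co-chaperones had 3 higher and 6 lower of 30. HSPE1 was at 303 in P5 and 57.0 in PEF, and DNAJB4 at 8.46 in P5 and 98.8 in PEF at a shared locus. Proteasome subunits had 2 higher and 1 lower of 24.

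Most cell division genes were higher in P5. Of 56 mitosis and chromosome segregation genes, 50 were higher and 0 lower (median 2.11.) CCNB1, cyclin B1 that drives entry into mitosis, was at an FPKM of 121 in P5 and 17.2 in PEF. INCENP, of the chromosomal passenger complex, was at 58.2 in P5 and 5.76 in PEF, and UBE2C, the ubiquitin-conjugating enzyme of the anaphase-promoting complex, was at 52.5 in P5 and 5.02 in PEF. Of 42 DNA replication genes, 29 were higher and 1 lower (median 1.85.) The histone chaperone ASF1B was at 26.9 in P5 and 2.59 in PEF, and MCM5 of the replicative helicase was at 20.6 in P5 and 2.12 in PEF. The lower member was ORC4 of the origin recognition complex, at 34.9 in P5 and 95.8 in PEF, at a shared locus. DNA repair genes had 26 higher and 2 lower of 50. PARP1, a sensor of strand breaks, was at 132 in P5 and 24.3 in PEF, and LIG4, the ligase of end joining, was at 5.67 in P5 and 24.5 in PEF. Among 13 G1 regulators 7 were higher and 2 lower. E2F8, an atypical E2F repressor, was at 9.67 in P5 and 2.14 in PEF, while RB1, the retinoblastoma protein, was at 6.13 in P5 and 18 in PEF at a shared locus. CDKN2A, the locus of p16 and ARF, was at 28.5 in P5 and 19.4 in PEF and at 4.03 in P10.

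Most matrix genes were lower, in several classes of protein, and some collagens went the other way. Of 31 collagen genes with a row 23 were compared, and 15 were lower and 6 higher, with a median of -5.03. Without the filter, which brings in collagens low in both columns, the median was -0.83. Collagens took 0.05% of the nuclear FPKM sum in P5 and 1.27% in PEF. Those that were higher passed the filter through P5 alone. Of these, COL2A1, the collagen of cartilage and notochord, was at an FPKM of 7.18 in P5 and 0.0262 in PEF, and its fibril partner COL9A1 was at 10.6 in P5 and 0.0147 in PEF. The other 4, named after their values were seen, were COL10A1 of growth plate cartilage (at a shared locus), COL17A1 of hemidesmosomes, and COL4A5 and COL4A6 of basement membranes, at FPKM of 2.29 to 6.03 in P5 and 0.0273 to 0.387 in PEF. Enzymes that process collagen followed the collagens, with 16 lower and 0 higher of 18. Of the 18, 4 passed the filter through PEF alone and 0 through P5 alone. P4HA1, a catalytic chain of prolyl hydroxylase, was at 18.6 in P5 and 249 in PEF. LOX, which crosslinks collagen and elastin, was at 8.75 in P5 and 179 in PEF.

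Proteoglycans and elastic fibre genes had 24 lower and 6 higher of 33, with 5 of the 33 passing the filter through PEF alone and 1 through P5 alone. BGN, biglycan, was at an FPKM of 14 in P5 and 1495 in PEF, and LTBP2, a microfibril-associated protein, at 0.284 in P5 and 170 in PEF. The exceptions included GPC2, a glypican of the developing nervous system, at 8.49 in P5 and 2.46 in PEF. Of 52 matrix proteases and inhibitors, 27 were lower and 6 higher. MMP2, gelatinase A, was at 52.1 in P5 and 636 in PEF, and MMP1, interstitial collagenase, at 0.178 in P5 and 87.6 in PEF. SERPINB7, an intracellular serpin, went the other way at 14.6 in P5 and 0.0156 in P10, against 0.0388 in PEF. IGF-binding and CCN proteins were lower in 9 of 10 and had the lowest list median, -5.90. CCN2, connective tissue growth factor, was at 20.6 in P5 and 1583 in PEF, and IGFBP4 at 1.99 in P5 and 231 in PEF.

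Adhesion and cytoskeletal genes differed by class. Integrins had 10 lower and 3 higher of 17. ITGB1, the common beta chain, was at an FPKM of 191 in P5 and 1656 in PEF, and ITGA5, the alpha chain of the fibronectin receptor, was at 8.62 in P5 and 176 in PEF. ITGB2, the leukocyte beta chain, was at 3.65 in P5 and 0.405 in PEF. Laminins and nidogens of the basement membrane had 6 lower and 0 higher of 7, with LAMB1 at 32.6 in P5 and 306 in PEF. Contractile genes had 17 lower and 0 higher of 20, and the 21 with a row took 0.27% of the nuclear FPKM sum in P5 and 4.02% in PEF. TPM4, a tropomyosin of non-muscle stress fibres, was at 424 in P5 and 4609 in PEF, and CNN1, calponin, at 2.79 in P5 and 469 in PEF. Focal adhesion and YAP or SRF target genes had 17 lower and 1 higher of 27. PARVA, a parvin that links integrins to actin, was at 12.1 in P5 and 187 in PEF, whereas TEAD2, a DNA-binding partner of YAP, was at 30.4 in P5 and 14 in PEF.

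Tubulins and intermediate filaments had 10 higher and 2 lower of 17. Beside the keratins, NEFL, the light neurofilament chain, was at an FPKM of 14.4 in P5 and 0.467 in PEF, while LMNA, encoding lamins A and C, was at 40.4 in P5 and 329 in PEF. Desmosome and apical polarity genes had 13 higher and 0 lower of 15, of which 10 passed the filter through P5 alone. ST14, the membrane protease matriptase, was at 21.6 in P5 and 3.46 in P10, against 0.0421 in PEF, and its inhibitor SPINT2 was at 37.9 in P5 and 0.535 in P10, against 1.03 in PEF. JUP, plakoglobin, was at 26.6 in P5 and 24.5 in PEF. Tight and gap junction genes had 13 higher and 2 lower of 20, with 11 of the 20 passing through P5 alone. GJA1, the connexin of fibroblast gap junctions, was the lowest of them at 30.1 in P5 and 710 in PEF. Cadherins and protocadherins went both ways, with 7 higher and 6 lower of 18 and a median of 0.57 that turned to -0.93 with a mean FPKM of at least 5. Of the 18, 7 passed the filter through P5 alone and 2 through PEF alone. CDH3, P-cadherin, was at 12.1 in P5 and 0.394 in PEF, and CDH11, the mesenchymal cadherin, at 67.7 in P5 and 423 in PEF.

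Transcription factor families split by class. HOX genes, which pattern the body axis, had 4 higher and 11 lower of 21, with a median of -1.03. Of the 21, 2 passed the filter through P5 alone and 6 through PEF alone, which fixes their direction but not its size. That median lay between -1.56, with a mean FPKM of at least 5, and -0.31, with no filter, over the alternatives tried, and was -0.34 with a pseudocount of 5. A split by paralogue group is a view taken after the values were seen. Among groups 1 to 4, which act toward the head end, 3 of 9 were higher and 1 lower. Among groups 5 to 13, 1 of 12 was higher and 10 were lower. Of these lower genes, HOXB5, HOXB8, HOXC10, HOXA11 and HOXD12 passed the filter through PEF alone, and HOXA2 of the anterior groups passed through P5 alone. HOXD3 was at an FPKM of 9.52 in P5 and 1.70 in PEF, and HOXD4 at 12.3 in P5 and 3.99 in PEF. HOXB6 was at 1.54 in P5 and 32.8 in PEF, and HOXB8 at 0.957 in P5 and 10.9 in PEF. HOXA5 was at 3.24 in P5 and 17.9 in PEF. Exceptions were HOXB4 of the anterior groups, at 4.49 in P5 and 10.2 in PEF, and HOXD9 of the posterior groups, at 10.9 in P5 and 3.61 in PEF. Cluster divided the calls too, as the higher genes were HOXA2, HOXD3, HOXD4 and HOXD9, although HOXD10 and HOXD12 were lower. Cluster and paralogue group were not separated here.

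**Figure D5:**
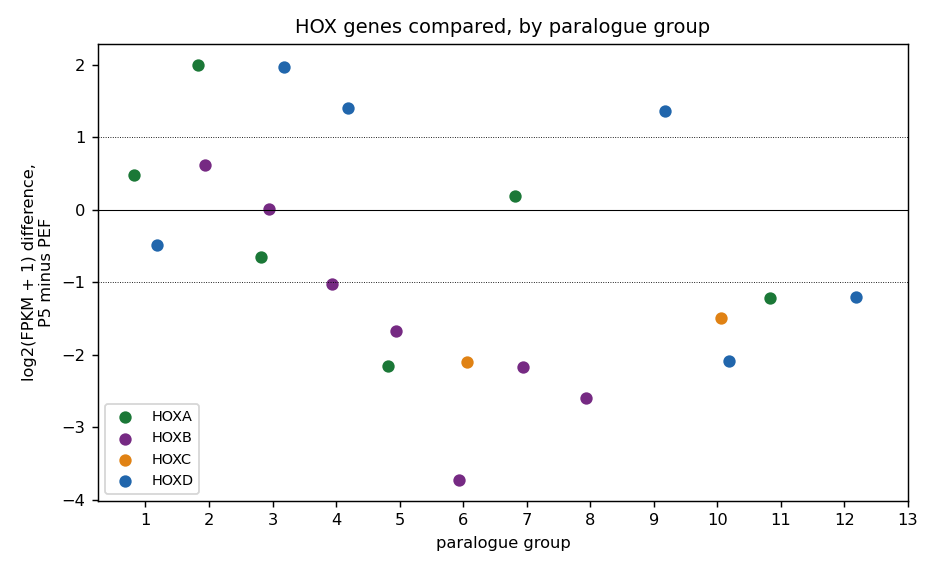
Difference in log2(FPKM + 1), P5 minus PEF, of the 21 HOX genes compared, by paralogue group on the horizontal axis and by cluster in colour, with dotted lines at -1 and 1. HOXA2 (2.0, at a shared locus), HOXD3 (1.96) and HOXD4 (1.41) lie above the upper line on the left, and HOXB6 (-3.73) is lowest.

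Other homeobox factors went both ways. PRRX2, a limb and skin mesenchyme factor, was at an FPKM of 1.11 in P5 and 104 in PEF. OTX2, which specifies forebrain and midbrain, was at 49.7 in P5 and 0.312 in PEF, and LMX1A, a roof plate factor, at 21.7 in P5 and 159 in P10, against 0.113 in PEF. The list counted 14 higher and 11 lower of 41, and its median of 0.22 turned to -0.01 under quantile normalization and to -0.24 with a mean FPKM of at least 5. Of the 41, 13 passed the filter through P5 alone and 2 through PEF alone. SOX, forkhead, T-box, GATA and KLF factors had 10 higher and 13 lower of 34. FOXH1, the partner of SMAD2 in Nodal signalling, was at 15.1 in P5 and 0.0360 in PEF, and TBX2 at 0.530 in P5 and 23.3 in PEF. Basic helix-loop-helix and EMT factors had 9 higher and 12 lower of 29. MYCN was at 9.95 in P5 and 0.250 in PEF, and MXD3, which competes with MYC for MAX, at 12 in P5 and 0.842 in PEF. The hypoxia factors EPAS1 and HIF1A were lower, EPAS1 at 2.50 in P5 and 60.8 in PEF and HIF1A at 64.4 in P5 and 275 in PEF. Any addition from introduced copies to the values of LIN28A, KLF4 or MYC cannot be told from this table.

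AP-1 and immediate early genes had 8 lower and 1 higher of 15. NR4A2, an orphan nuclear receptor induced by many stimuli, was at an FPKM of 1.09 in P5 and 62.3 in PEF, IER3 at 4.03 in P5 and 124 in PEF, and DUSP1, a phosphatase of stress kinases, at 7.98 in P5 and 116 in PEF. DUSP4, a related phosphatase, was the higher member at 32.7 in P5 and 7.71 in PEF. In contrast to these, zinc finger genes named ZNF or ZFP differed little: 16 were higher and 8 lower of 156, or 10.3% and 5.13%, both under the background. ZNF423, a many-fingered factor, was at 13 in P5 and 0.608 in PEF.

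Histone modifiers and Polycomb subunits had 13 higher and 8 lower of 68, or 19.1% and 11.8%, both under the background, with a median of 0.30. PRMT1, the main asymmetric arginine methyltransferase, was at an FPKM of 160 in P5 and 29.1 in PEF, PHC1 of Polycomb repressive complex 1 at 33.8 in P5 and 6.21 in PEF, and the lysine methyltransferase SETD7 at 7.07 in P5 and 83.6 in PEF. Lysine demethylases of the KDM family had 0 higher and 1 lower of 14, with a median of 0.00. Chromatin remodellers and architectural proteins had 14 higher and 4 lower of 51, or 27.5% and 7.84%. HELLS, a remodeller linked to DNA methylation, was at 28.2 in P5 and 3.57 in PEF at a shared locus, and HMGN2, a nucleosome-binding protein, at 277 in P5 and 71.1 in PEF. SMARCA1, an ISWI ATPase, was at 18.9 in P5 and 86.0 in PEF at a shared locus.

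Most WNT ligands compared were higher, and secreted WNT antagonists went both ways. Of 38 WNT pathway genes, 19 were higher and 8 lower (median 0.93), and 12 passed the filter through P5 alone. Over the alternatives tried, that median lay between 0.32, with a mean FPKM of at least 5, and 1.14, without IDs that share a locus. It was 0.37 with a pseudocount of 5. The ligands themselves had 7 higher and 2 lower of 10. WNT1 was listed at 0 in PEF and at an FPKM of 8.45 in P5, and WNT16 was at 6.82 in P5 and 0.773 in PEF. WNT5B, a non-canonical ligand, was at 7.06 in P5 and 42.7 in PEF. FZD10, a Frizzled receptor, was at 27.3 in P5 and 0.567 in PEF. The secreted antagonists, a subgroup formed after the values were seen, had 2 higher and 3 lower of 6. DKK3 was at 5.76 in P5 and 272 in PEF and SFRP1 at 41.7 in P5 and 387 in PEF, whereas SFRP5 was at 17 in P5 and 0.332 in PEF. TGF-beta, activin and BMP genes had 18 lower and 5 higher of 37. CHRDL1, a BMP antagonist, was at 7.05 in P5 and 173 in PEF, and ACVR2B, an activin receptor, was at 18.8 in P5 and 1.26 in PEF.

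Receptor tyrosine kinases and their ligands split almost evenly, with 18 higher and 17 lower of 52. Of the 52, 13 passed the filter through P5 alone and 7 through PEF alone. NTRK2, the receptor of BDNF, was at an FPKM of 16.9 in P5 and 0.0457 in PEF, and ERBB3 at 10.2 in P5 and 0.188 in PEF at a shared locus. FGFR1 was at 105 in P5 and 47.9 in PEF. VEGFA was at 14.2 in P5 and 290 in PEF, and AREG, amphiregulin, at 0.848 in P5 and 57.8 in PEF. The guidance list split by family, a division made after the values were seen. Eph receptors and ephrins had 8 higher and 1 lower of 13, led by EPHA3 at 34.5 in P5 and 0.222 in PEF. Class 3 semaphorins and their neuropilin receptors had 0 higher and 6 lower of 7, with SEMA3C at 0.769 in P5 and 37.5 in PEF and NRP2 at 7.78 in P5 and 104 in PEF. Notch, Hedgehog and retinoid genes had 16 higher and 9 lower of 36. The cellular retinoid binders went both ways, CRABP1 at 155 in P5 and 22.5 in PEF and CRABP2 at 160 in P5 and 614 in PEF. The median of this list, 0.51, turned to -0.10 with a mean FPKM of at least 5.

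Among inflammatory and interferon genes, lower calls outnumbered higher ones. Of 82 chemokine, interleukin and prostaglandin genes with a row, 29 were compared, and 19 were lower and 3 higher, with a median of -2.16. Of the 29, 10 passed the filter through PEF alone and 3 through P5 alone, which fixes their direction. Of the 82, 53 were below an FPKM of 1 in both columns, and the median was -0.14 without the filter and -0.96 with a pseudocount of 5. PTGS2, cyclooxygenase 2, was at an FPKM of 5.51 in P5 and 502 in PEF. IL1R1, the interleukin 1 receptor, was at 0.724 in P5 and 25.3 in PEF, while PTGIS, prostacyclin synthase, was at 12.3 in P5 and 0.924 in PEF. Interferon response genes had 11 lower and 1 higher of 24. Of the 24, 9 passed the filter through PEF alone and 0 through P5 alone. IRF9, the DNA-binding subunit of the interferon-stimulated complex ISGF3, was at 2.19 in P5 and 24.7 in PEF, and HERC5 was the higher member at 5.18 in P5 and 1.56 in PEF.

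Among metabolic lists, calls of mitochondrial respiration and translation genes were mostly higher, whereas glycolysis genes were called lower at about the background share. Glycolysis and pentose phosphate genes had 4 higher and 6 lower of 30. GAPDH was at an FPKM of 2022 in P5 and 4096 in PEF at a locus shared by 10 IDs and PKM, pyruvate kinase, at 699 in P5 and 1207 in PEF. PDK4, which inhibits pyruvate dehydrogenase, was at 11.7 in P5 and 0.168 in PEF, and RPIA of the pentose phosphate pathway at 22.7 in P5 and 2.76 in PEF. Citrate cycle genes had 6 higher and 2 lower of 28, or 21.4% and 7.14%, with MDH2, mitochondrial malate dehydrogenase, at 98.9 in P5 and 25.5 in PEF and the cytosolic malic enzyme ME1 at 4.60 in P5 and 18.6 in PEF. Nuclear respiratory chain subunits had 16 higher and 1 lower of 42, or 38.1% and 2.38%. UQCRQ of complex III was at 53.6 in P5 and 7.08 in PEF. Mitochondrial ribosome and import genes had 19 higher and 1 lower of 60, with TIMM8A at 42.7 in P5 and 8.33 in PEF. The lower member was MRPL13, at 118 in P5 and 301 in PEF.

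Serine, glycine and one-carbon genes had 13 higher and 3 lower of 31. PPAT, which commits phosphoribosyl pyrophosphate to purine synthesis, was at an FPKM of 28 in P5 and 1.09 in PEF. AMT of the glycine cleavage system was at 14 in P5 and 0.312 in PEF, and AHCY, which clears S-adenosylhomocysteine after methylation, at 166 in P5 and 15.4 in PEF. The serine synthesis enzymes PSAT1 and PSPH were lower, PSAT1 at 22.4 in P5 and 186 in PEF and PSPH at 13.2 in P5 and 47.3 in PEF. Cholesterol and fatty acid synthesis genes had 3 higher and 2 lower of 27, both shares under the background, with FASN, fatty acid synthase, at 54.3 in P5 and 23.0 in PEF. Glutathione and antioxidant genes had 2 higher and 4 lower of 26, again both under it, with NFE2L2, the regulator of the antioxidant response, at 22.7 in P5 and 99.5 in PEF.

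Among genes of the secretory and degradative compartments, lower calls outnumbered higher ones. Of 48 genes for folding in the endoplasmic reticulum and for coat proteins, 23 were lower and 1 higher, with a median of -0.92. KDELR3, a receptor that returns resident proteins to the reticulum, was at an FPKM of 4.65 in P5 and 137 in PEF. CREB3L1, a membrane-bound factor for secretory capacity, was at 1.18 in P5 and 33.6 in PEF, and SEC24D, a cargo adaptor of the COPII coat, at 8.03 in P5 and 54.0 in PEF. ERP29 was the higher member at 85.4 in P5 and 41.7 in PEF. Lysosome and autophagy genes had 21 lower and 0 higher of 39. CTSB, cathepsin B, was at 85.4 in P5 and 467 in PEF, WIPI1, an early autophagosome protein, at 4.53 in P5 and 63.5 in PEF, and CD63 at 242 in P5 and 784 in PEF.

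Transport and neural genes included many that were low in fibroblasts. Of 267 solute carriers with a row, 154 were compared, with 43 higher and 25 lower. These are 27.9% and 16.2%, against 22.3% and 19.7% of all IDs with a symbol, and the median was 0.16. Of the 154, 35 passed the filter through P5 alone, against 1680 of all 13452 IDs. SLC7A8, an exchanger of neutral amino acids, was at an FPKM of 100.1 in P5 and 1.79 in PEF, and SLC7A3, a cationic amino acid carrier, at 14.5 in P5 and 0.0710 in PEF. SLC41A2, a magnesium carrier, was at 0.905 in P5 and 49.5 in PEF at a shared locus. Ion channels had 16 higher and 11 lower of 47, with 21 of the 47 passing through P5 alone, and their median of 0.75 turned to -0.87 with a mean FPKM of at least 5. TRPC6, a cation channel gated by diacylglycerol, was at 0.425 in P5 and 43.4 in PEF. Synaptic and neurotransmitter genes had 17 higher and 2 lower of 33, with 16 of the 33 passing through P5 alone. GABRA5, an alpha subunit of the GABA-A receptor, was at 18.5 in P5 and 0.0486 in PEF, and HOMER2, a postsynaptic scaffold, at 49.8 in P5 and 5.62 in PEF. Neural progenitor and neuron markers had 23 higher and 0 lower of 28, and 11 of the 28 passed through P5 alone. DPYSL5, a collapsin response mediator of growing axons, was at 49.4 in P5 and 0.357 in PEF.

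Germ cell and imprinted genes had few members above the filter. Of 46 germ cell and meiosis genes with a row, 12 were compared, with 9 higher and 1 lower, and 7 passed through P5 alone. TDRKH, a partner of PIWI proteins, was at an FPKM of 21.2 in P5 and 0.725 in PEF, and KIT at 15.8 in P5 and 2.22 in P10, against 0.888 in PEF. SYCP2 of the synaptonemal complex was the lower member at 2.06 in P5 and 31.0 in PEF. Of 12 imprinted genes compared, 3 were higher and 2 lower, or 25% and 16.7%, near the background. DIRAS3, a RAS-related growth suppressor, was at 87.2 in P5 and 6.66 in P10, against 3.86 in PEF. PHLDA2, which limits placental growth, was at 4.30 in P5 and 75.3 in PEF.

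All genes with a symbol were also grouped by the letters that start the symbol, which gave 89 families of at least 10 compared members. Of these, 64 had a median within 0.5 of 0, so most name families did not move as a block. The 3 with a median of at least 1 were the WNT ligands, the EXOSC subunits of the RNA exosome, with 7 higher and 0 lower of 10, and the nucleoporins named NUP, with 12 higher and 0 lower of 19. EXOSC2 was at an FPKM of 52.9 in P5 and 11.5 in PEF. The 4 with a median of -1 or below were the collagens, the alpha integrins, the phosphodiesterases named PDE, with 8 lower and 2 higher of 15, and the nucleotide exchange factors named ARHGEF, with 9 lower and 2 higher of 16. PDE5A, which degrades cyclic GMP, was at 3.67 in P5 and 29.2 in PEF, and ARHGEF2, a microtubule-bound exchange factor, was at 18.9 in P5 and 101 in PEF. DEAD-box RNA helicases named DDX had 8 higher and 0 lower of 25. Kinesins had 16 higher and 6 lower of 32, with the mitotic KIF4A at 42.5 in P5 and 3.43 in PEF and the transport motor KIF5B at 88.1 in P5 and 217 in PEF. Sorting nexins had 0 higher and 5 lower of 18.

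Single members stood far from their families. FBXO32, an F-box protein of muscle wasting, was at an FPKM of 0.442 in P5 and 57.2 in PEF, among 20 FBXO genes with 2 higher and 5 lower. MYO1D, an unconventional myosin, was at 3.24 in P5 and 219 in PEF at a shared locus, and CCDC80, a secreted matrix protein, at 24.6 in P5 and 436 in PEF. TRIM24, a chromatin reader and coactivator, was at 116 in P5 and 20.9 in PEF. KIF5C, a neuronal kinesin, was at 68.4 in P5 and 1.70 in PEF.

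Some genes stayed level at high expression, named here after their values were seen. RPL27 was at an FPKM of 417 in P5 and 416 in PEF, the RNA-binding protein SYNCRIP at 247 in P5 and 246 in PEF, and ZMAT2, a spliceosome protein, at 117 in both columns. TFRC, the transferrin receptor, was at 290 in P5 and 272 in PEF. ACTB, a usual reference gene, was at 788 in P5 and 1776 in PEF, a difference of -1.17.

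Called genes were counted along the chromosomes, with shares close to the background on most. On chromosome X 27.0% of 466 compared IDs were higher and 17.6% lower. On chromosome 9 23.2% of 655 were higher and 26.9% lower, and on chromosome 2 23.5% of 1140 were higher and 16.8% lower. Of the 7 IDs compared on chromosome Y, 0 were called. Runs of at least 5 neighbouring compared genes with the same call were then listed, among loci that hold 1 ID, with coordinates on susScr3 as the table gives them. The longest was a run of 15 higher genes on chromosome 2 (35455066 to 43173664), with LGR4, the R-spondin receptor, at an FPKM of 21.7 in P5 and 4.62 in PEF and PRMT3 at 18.8 in P5 and 3.76 in PEF. A run of 14 higher IDs without symbols lay within chromosome 7 (23030078 to 23181105). Their median FPKM was 8.13 in P5 and 1.42 in P10, against 0.366 in PEF. The members of the runs are named after their values were seen.

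There were 19 higher and 12 lower runs. The longest lower one, 12 genes on chromosome 9 (105378495 to 110592594), included SEMA3D at an FPKM of 6.96 in P5 and 38.1 in PEF, SEMA3A at 1.11 in P5 and 13.9 in PEF, and HGF, hepatocyte growth factor, at 0.180 in P5 and 6.70 in PEF. The next, 10 IDs on chromosome 6 (56718235 to 57365666), held the zinc finger genes ZNF606, at 1.30 in P5 and 3.85 in PEF, and ZNF135, at 0.481 in P5 and 2.06 in PEF, among IDs without a symbol. A run of 7 on chromosome 12 (24788155 to 25036657) was the HOXB cluster from HOXB4 to HOXB8 with CALCOCO2. A run of 6 on chromosome 2 (49852151 to 50758475) held TEAD1, PARVA and DKK3. TEAD1, a DNA-binding partner of YAP, was at 17.9 in P5 and 133 in PEF. A run of 6 on chromosome 3 (76418259 to 77369555) held GFPT1, the entry enzyme of hexosamine synthesis, at 10.3 in P5 and 58.8 in PEF. FMOD and PRELP lay in another run of 6 on chromosome 9 (70202768 to 70872407). On the higher side, a run of 8 on chromosome 5 (15408275 to 16007880) held WNT10B, WNT1 and PRPH, a neuronal intermediate filament at 15.5 in P5 and 0.268 in PEF. A run of 6 on chromosome X (97980615 to 98266169) held BEX1 with BEX3, at 379 in P5 and 68.3 in PEF, and TCEAL9, at 235 in P5 and 84.5 in PEF. How often runs of these lengths arise among called genes in any order was not tested.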

How the data were processed

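Per the labels, RNA came from an RNeasy Mini kit and libraries from a NEBNext Ultra kit. Bowtie2 2.0.6, TopHat2 2.0.9 and susScr3 are named in the submitters' processing notes. The authors deposited 1 FPKM column per group, per the file headers, and how 2 libraries became 1 value is not stated. Depth is unknown. Among 589 genes under an FPKM of 0.15 in both columns, the commonest ratio was shared by 16, in a search that always returns some ratio. It would put P5 at 0.732 times the depth of PEF, which could not be checked. Symbols came from a table that matched 11804 of 25322 IDs (46.6%). No promoter or protein sequences were used. Differences of log2(FPKM + 1) were computed in Python 3.11.15 with pandas 2.3.3, and the code was run on simulated data. That run planted shifts well past the threshold in genes of higher FPKM only. It does not bear on low genes or on the spread between libraries. No test was run, since each group has 1 value.

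Members and lists were chosen with earlier results of these data known. The genes named were the 12 highest and 12 lowest differences (FPKM of at least 5, no small RNAs). Added were the marker lists, the 6 leading genes listed at 0 per direction, the 4 highest per column, and per list or family up to 4 leading, 2 opposite and 2 most abundant members. Some genes meeting this rule are left out of the text. Other names are said to be chosen after their values were seen, and HOX genes and subgroups belong to these. Of loci, 4269 IDs share 1 with another ID, and neither the use of strand in counting nor the base of the coordinates (0 or 1) is stated. Alternatives were pseudocounts of 0.1 and 5, other filters, scalings and thresholds, and leaving out sets of IDs.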

Additional observations from a re-analysis of the deposited data

How the results depend on the processing

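No paired analysis was possible because each group has 1 deposited value, and for the same reason no library could be left out in turn. The promoter comparison by CpG content was not run. With a pseudocount of 5, 1416 IDs were higher in P5 and 1826 lower, and 17 lists had a median of at least 1 in either direction, against 29. Without a filter on low FPKM 20 lists did. The counts of called IDs could not change there, since the added 1 keeps any ID below the filter under a difference of 1. With a mean FPKM of at least 5, 1648 were higher, and 2168 lower. With a difference of at least 2 as the count, 946 were higher and 1096 lower, and 12 lists had a median of at least 2 in either direction. The balance also turned under median scaling (2809 higher, 2875 lower) and trimmed-mean scaling (2810 and 2874), each of which takes 1 constant (0.06 on the log2 scale) from every P5 value, so that the counts follow from that constant. The balance was kept with a pseudocount of 0.1 (3495 and 3137) and under quantile normalization (3001 and 2691). Leaving out IDs listed at 0 in 1 column (2705 and 2614) or IDs that share a locus (2509 and 2294) also kept it. So did leaving out mitochondrial genes with FPKM rescaled to the rest (3126 and 2627). That rescaling raises every P5 value relative to PEF by 1 constant (0.06 on the log2 scale), so these last counts follow from it and from the IDs left out. The median of all IDs moved by -0.06 under both scalings and by -0.14 where a mean FPKM of 5 was required. Outside both scalings and that rescaling, the cause of the moves was not tested. Of the medians of lists under the alternatives, 619 stayed within the limits set for them and 71 moved. The 619 are no measure of stability. The threshold of 2 cannot change a median, and both scalings and the mitochondrial rescaling shift P5 against PEF by 1 constant of 0.06. Lists near 0 changed sign: cholesterol and fatty acid synthesis to -0.03 under median scaling, glutathione and antioxidant genes to -0.02, and under quantile normalization ZNF genes to -0.08, ephrins and related genes to -0.09 and aminoacyl-tRNA synthetases to 0.02. Solute carriers turned to -0.25 and ephrins and related genes to -0.75 with a mean FPKM of at least 5. Depth and the spread between libraries limit what low genes can show.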
